A study of Mus musculus with 36 samples.

Results

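Basement membrane genes were followed in mouse pancreatic fibroblasts cultured alone or with pancreatic tumor cells. The set held 10 genes of the 39017 listed, chosen by name with earlier results of these data known. Col4a1, Col4a2 and Col4a5 encode chains of type IV collagen, Lama2, Lama4, Lamb1 and Lamc1 encode laminin chains, Nid1 and Nid2 encode the nidogens, and Hspg2 encodes the heparan sulfate proteoglycan perlecan. Each of the 10 passed the filter on low counts. Basement membranes are thin sheets of matrix that lie under epithelium and endothelium and around muscle and fat cells. A laminin network, made of trimers with an alpha, a beta and a gamma chain, binds receptors on the cell surface, and a covalently cross-linked network of collagen IV trimers gives the sheet its strength. Nidogens and perlecan bridge the networks. In the pancreas fibroblasts and stellate cells contribute to this matrix together with epithelial and endothelial cells.

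The 36 libraries came from C57BL/6 pancreatic fibroblasts in 9 groups of 4. Fibroblasts were grown in mono-culture, or for 48 h with tumor clones E, H, V, K, M, N or T or with the line KPC1, and GFP-expressing tumor cells were then removed by fluorescence-activated cell sorting. The clones were clonal lines of 1 pancreatic tumor from a mouse with Trp53 +/R172H and Pdx1-Cre among its alleles, in which Cre is driven in pancreatic epithelium, and the study placed E, H and V in a first metabolic class and K, M, N and T in a second. What distinguishes KPC1 is not given in the labels, and the number of fibroblast isolations is not given in the sources used here. Nothing says that the 4 libraries of a group came from separate cultures, so p-values measure the spread between these libraries, which may be technical. All 8 co-cultures were compared with the same 4 mono-culture libraries. In the running numbers of the sample titles, co-cultures follow each other by replicate and the 4 mono-cultures come last. What these numbers stand for is not given. Any effect of that order cannot be told apart from that of co-culture.

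Total counts ran from 12532122 to 21985538 per library, and no member fell below 130 counts in any library. Levels are given in CPM, which are counts scaled to a common library total after normalization by trimmed mean of M values, as single libraries in the order of their replicate numbers or as mean ± SD over 4 libraries. The fibroblast markers Col1a1, Col1a2, Col3a1, Pdgfra, Pdgfrb, Dcn, Lum, Vim, Thy1, Pdpn and Fap were all detected, with a summed level of 21400 to 23200 CPM in mono-culture and 11000 to 32200 CPM in co-culture. The list did not move as one: Col1a2, Col3a1, Dcn, Lum and Pdgfra were lower with KPC1 and 3 clones (H, V, T), while Fap was higher with all 8 lines (group means of 19 to 67.1 CPM) and Thy1 with E, H, V, N, T and KPC1. The 12 epithelial markers summed to 2.81 to 4.29 CPM in mono-culture and to 20.7 to 801 CPM in co-culture, of which Krt8, Krt18 and Krt19 made up 74% to 98.2% in co-culture libraries. Cdh1, which encodes E-cadherin, had 0.258 CPM in mono-culture and 4.74 to 30.9 CPM with clones E, H, V, N and T and with KPC1, where it was higher, and 0.658 and 0.0304 CPM with K and M, where it did not pass. Cldn4 and Esrp1 stayed at or under 3 counts in every library. The median sum was 82.6 CPM with clone V, 145 with K, 164 with H, 216 with M, 330 with KPC1, 334 with E, 456 with T and 521 with N. Pericyte (mural) markers summed to 104 to 116 CPM in mono-culture and 129 to 629 CPM in co-culture, mostly Notch3 and Mcam. That list did not move as one either. Rgs5 went from 1.81 CPM in mono-culture to group means of 0.118 to 0.893 CPM, and was lower with E, H, V, T and KPC1. Cspg4 passed with no line against mono-culture, and Abcc9 had group means of at most 0.479 CPM. Endothelial and leukocyte markers summed to at most 6.69 and 16.2 CPM in any library. The part of any of these cell types in the results below was not tested, and in such bulk libraries fewer cells of a type and less RNA per cell cannot be told apart.

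The balance of long and short transcripts also differed between libraries. It was measured as the median log2 deviation from the all-library mean of 683 genes longer than 8000 bases minus that of 4020 genes shorter than 2000 bases. This value was -0.219 to -0.0672 in mono-culture, -0.46 to -0.175 in the 8 co-culture libraries that the labels number 4, and -0.224 to 0.269, with a median of 0.105, in the other 24 co-culture libraries. Against mono-culture the long genes had a median log2 fold change of 0.0827 to 0.185 in the 8 co-cultures. The members' transcripts are long, from 4867 bases for Nid2 to 14160 for Hspg2 as implied by the deposited RPKM, which is scaled for transcript length and library total. Each comparison except that of the metabolic classes was therefore repeated without the 9 libraries numbered 4, and with a smooth length trend taken out of every library. Both were chosen after seeing the data.

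Positions are those of GRCm38 (mm10). Col4a5 lies at chrX:141475385-141689234 (plus strand), Lama2 at chr10:26980036-27619758 (minus), Lama4 at chr10:38965515-39110188 (plus), Lamb1 at chr12:31265234-31329644 (plus) and Lamc1 at chr1:153218922-153332786 (minus). Nid1 lies at chr13:13437551-13512269, Nid2 at chr14:19751265-19811787 and Hspg2 at chr4:137468769-137570630, all on the plus strand. Col4a1 (chr8:11198423-11312826, minus strand) and Col4a2 (chr8:11312805-11449287, plus strand) are transcribed away from each other, and the annotated genes overlap by 22 bases. The library kit keeps the strand, and whether the counting used it is not given in the sources used here. This stretch is shown because the RNAs of the pair moved together in these libraries, and GC boxes (GGGCGG on either strand) are in capitals.
Col4a1 and Col4a2 overlap, chr8:11312805-11312826, plus strand: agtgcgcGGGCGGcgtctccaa
RefSeq windows of GRCm38.p6 that cover 250 bases before to 50 after a start were matched by symbol for 7 of the 10 members and were not found for Lama4, Lamc1 and Nid2. The upstream bases outside exons are shown for Lamb1 and Nid1, whose RNAs rose, for Lama2, whose RNA fell in some co-cultures, and for Hspg2, which passed the test with no line, with GC boxes and CCAAT boxes (CCAAT on either strand) in capitals.
Lamb1, chr12:31265043-31265233, plus strand: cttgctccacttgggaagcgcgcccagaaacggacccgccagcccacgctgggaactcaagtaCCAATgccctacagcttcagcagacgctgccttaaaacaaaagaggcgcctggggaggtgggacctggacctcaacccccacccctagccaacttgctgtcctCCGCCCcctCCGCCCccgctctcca
Nid1, chr13:13437352-13437550, plus strand: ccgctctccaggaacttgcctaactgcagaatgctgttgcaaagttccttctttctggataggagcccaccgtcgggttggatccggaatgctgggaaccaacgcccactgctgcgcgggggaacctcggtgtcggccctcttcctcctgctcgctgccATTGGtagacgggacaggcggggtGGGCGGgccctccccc
Hspg2, chr4:137468553-137468768, plus strand: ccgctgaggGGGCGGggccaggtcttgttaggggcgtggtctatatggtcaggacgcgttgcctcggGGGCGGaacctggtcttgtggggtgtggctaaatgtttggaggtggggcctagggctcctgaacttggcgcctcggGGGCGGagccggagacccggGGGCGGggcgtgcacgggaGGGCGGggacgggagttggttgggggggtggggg
Lama2, chr10:27616943-27617192, minus strand: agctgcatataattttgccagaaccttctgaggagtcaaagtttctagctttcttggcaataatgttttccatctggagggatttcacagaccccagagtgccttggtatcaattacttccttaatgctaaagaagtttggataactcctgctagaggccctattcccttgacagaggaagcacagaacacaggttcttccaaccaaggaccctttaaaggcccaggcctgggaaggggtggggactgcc
In these stretches Hspg2 held 5 GC boxes and no CCAAT box, Lamb1 held 2 GC boxes and 1 CCAAT box, Nid1 held 1 of each, and Lama2 held neither. The full 250 bases of each window held no further box of either kind. The Lama2 stretch lies in an intron of the annotated gene, whose longest transcript starts upstream of it. Over all 32851 RefSeq windows, 32.7% held a GC box and 33.8% a CCAAT box in the 250 bases before the start. The Lama2 stretch is 47.2% G and C, against 63.8% for Nid1, 63.9% for Lamb1 and 70.8% for Hspg2. These matches describe the letters of the windows and say nothing about binding.

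Most of the 10 genes were higher in co-culture than in mono-culture, and Nid2 was lower. The levels of 7 members differed among the clones by edgeR's F-test, as did those of 67.5% of all genes tested. With edgeR's quasi-likelihood test and Benjamini-Hochberg adjustment over 14439 genes, 6 members were higher and 1 was lower in the mean of the 7 clonal co-cultures against mono-culture, where 24.3% of all genes were higher and 24.9% lower. Among single lines, 6 members were higher and 1 lower with clone E (16.5% and 15.5% of all genes), 5 and 2 with clone H (27.8% and 26.4%), and 6 and 2 with clone V (29.4% and 28.9%). Clone K gave 3 higher members and 1 lower (10.4% and 8.69%), and the total of 4 fell to 1 without any 1 of mono-culture replicates 1, 2 or 3 or clone K replicates 1, 2 or 3. The counts were 5 and 1 with clone M (12.2% and 10.8%), with clone N 6 and none (19.7% and 19.2%), with clone T 6 and 1 (25% and 24.7%), and with KPC1 6 and 2 (30.5% and 28.5%). The median log2 fold change of the members was 0.599 in the mean of the clones, against 0.00578 over all genes tested. Summed over the 10 genes, the level went from 4486 ± 253 CPM in mono-culture to between 5626 ± 1447 CPM with clone K and 8184 ± 1435 CPM with KPC1, or from 0.449% to at most 0.818% of all counts. With the length trend taken out the number of members called with each line was the same except with clone T, where it went from 7 to 8. The F-test among the clones then also called Lamc1. Without the libraries numbered 4 the number called was 6 with E and M, 7 with K, N and T, and 8 with H, V and KPC1.

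**Figure D1:**
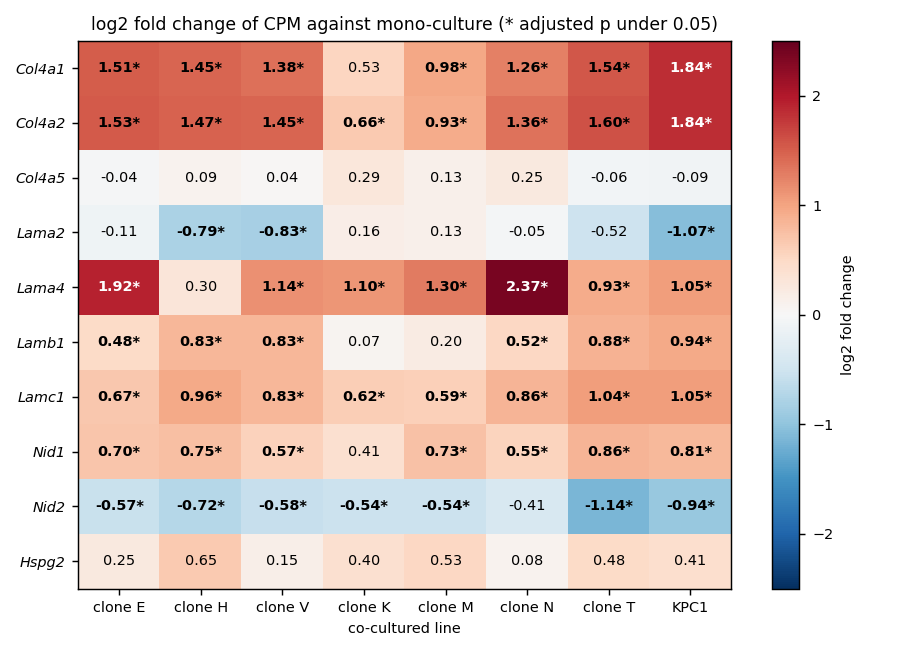
Log2 fold change in CPM of the 10 genes (rows) in fibroblasts co-cultured with each of 8 tumor lines (columns) against mono-culture, red for higher and blue for lower, with an asterisk where edgeR's adjusted p was under 0.05. The Col4a1 and Col4a2 rows run from 0.53 to 1.84, and the Nid2 row is negative with every line.

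Collagen IV chains Col4a1 and Col4a2, which together form the ubiquitous trimer of basement membranes, were higher in co-culture, with fitted ratios to mono-culture from 1.45 (Col4a1 with clone K, which missed the threshold) to 3.59 (Col4a1 with KPC1). Col4a1 was measured at 491, 519, 520 and 726 CPM in the mono-cultures. With KPC1 it reached 2044, 2168, 2276 and 1609 CPM, with clone T 1490, 1956, 1864 and 1273 CPM, and with clone E 1515, 1796, 1754 and 1372 CPM. With clone K it was 843, 940, 962 and 520 CPM. In 31 of 32 co-culture libraries Col4a1 was above every mono-culture library, and the exception was the clone K library numbered 4. The log2 fold change was 1.84 ± 0.20 (SE) with KPC1 (adjusted p = 5.49e-09), 1.54 ± 0.20 with clone T, 1.51 ± 0.20 with clone E and 0.98 ± 0.20 with clone M (adjusted p = 0.000389). With clone K it was 0.53 ± 0.19 and missed the threshold (adjusted p = 0.0521). Without the libraries numbered 4 it was 0.83 with clone K (adjusted p = 0.00107). That fit also left out mono-culture replicate 4, the highest mono-culture library at 726 CPM. Without clone K replicate 4 alone the log2 fold change was 0.69.

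Col4a2 followed the same course. It was measured at 359, 383, 382 and 456 CPM in the mono-cultures, at 649, 720, 782 and 350 CPM with clone K, and at 1462, 1495, 1657 and 1047 CPM with KPC1. All 8 lines passed the test, with log2 fold changes from 0.66 ± 0.22 with clone K (adjusted p = 0.0299) to 1.84 ± 0.22 with KPC1 (adjusted p = 4.40e-08). With clone K leaving out any of replicates 1, 2 or 3 of clone K or of mono-culture ended the call for Col4a2, at log2 values of 0.54 to 0.65. Within a library the ratio of Col4a1 to Col4a2 RPKM had a geometric mean of 1.38 in mono-culture and of 1.29 to 1.44 in the co-cultures, while the level of Col4a1 differed by up to 3.59 times. Over the 36 libraries the log2 levels of the pair had a Pearson r of 0.992. This r describes points that share libraries, depth and the balance of long and short transcripts.

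Col4a5, the X-linked chain that joins the trimers of kidney and other specialized membranes, stayed at 282 to 367 CPM in all groups. The mono-cultures had 277, 294, 299 and 332 CPM and the KPC1 cultures 267, 297, 303 and 261 CPM, so these groups overlap. No line passed the test for Col4a5, with log2 fold changes between -0.09 ± 0.11 with KPC1 and 0.29 ± 0.11 with clone K (adjusted p = 0.0674). Without the libraries numbered 4, Col4a5 was higher with clones K (log2 0.40, adjusted p = 0.0137) and N (log2 0.34, adjusted p = 0.0231). The share of Col4a5 in the summed RPKM of the 6 collagen IV genes went from 22.8% ± 1.21 in mono-culture to 7.61% ± 0.857 with KPC1 and 19.8% ± 3.25 with clone K. The share of Col4a1 went from 41.9% ± 2.41 to 53.3% ± 0.564 with KPC1. Col4a3 and Col4a4 had at most 3 counts in any library.

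**Figure D2:**
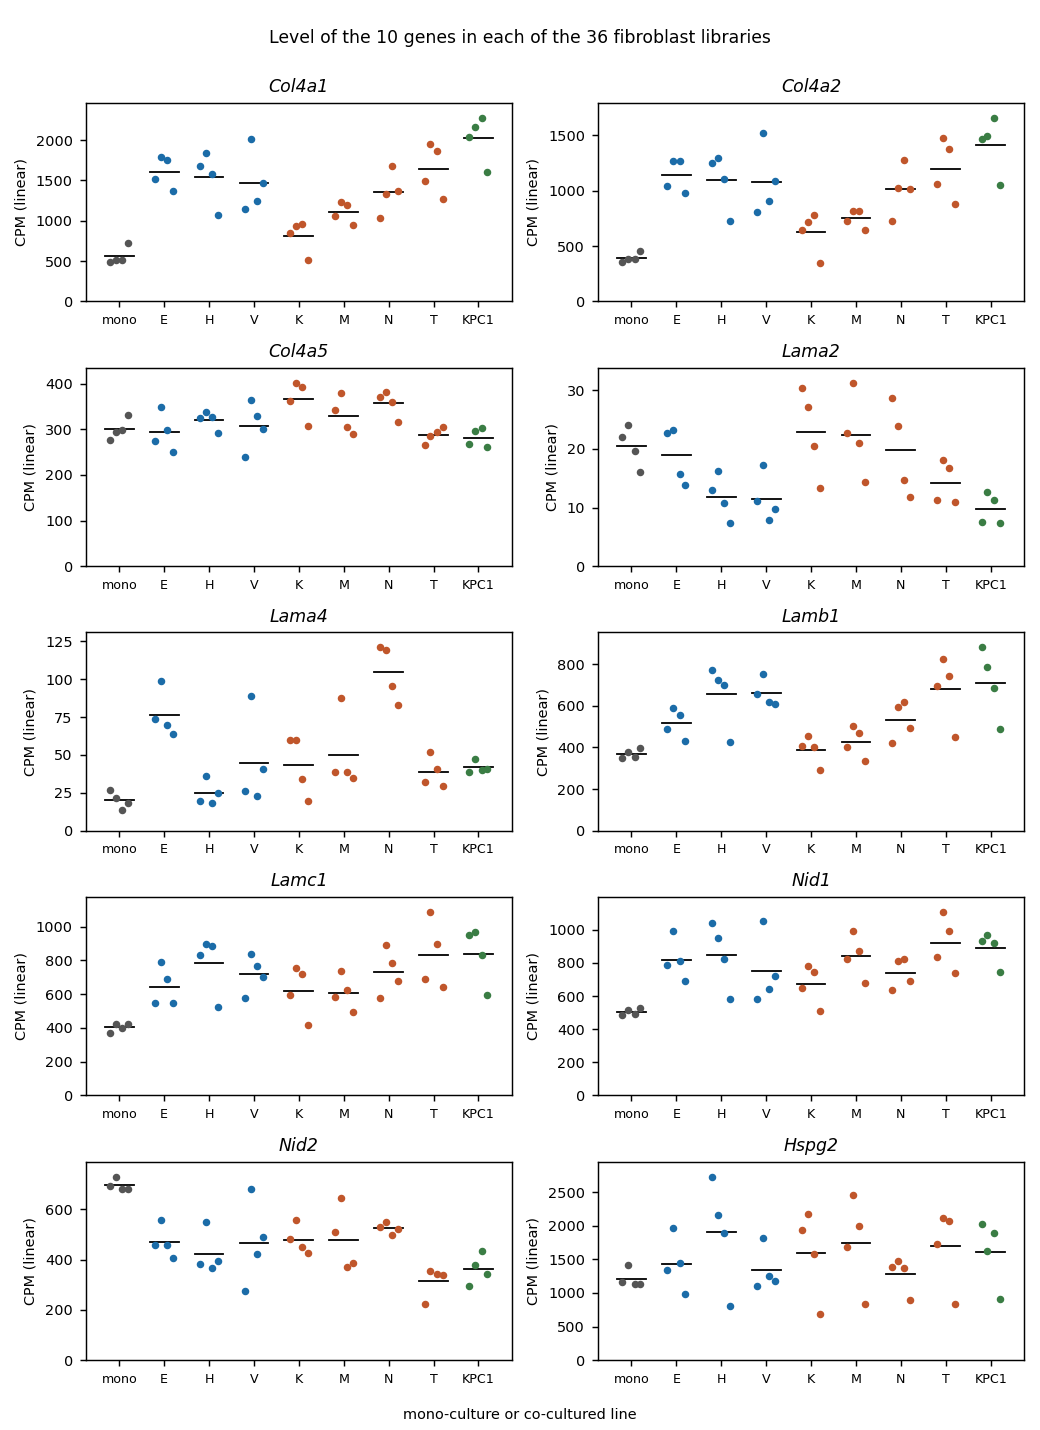
Level of each gene in CPM (linear axis from 0) in the 36 libraries, in mono-culture (grey), with first-class clones E, H and V (blue), with second-class clones K, M, N and T (orange) and with KPC1 (green); points are libraries, in the order of their numbers 1 to 4 from left to right, and bars are means of 4. Nid2 lies below the mono-culture points in all 32 co-culture libraries, and the rightmost Hspg2 point of most co-cultures lies far below the other 3.

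The laminin beta 1 and gamma 1 chains are shared by most laminin trimers. Lamc1 was 370, 426, 399 and 421 CPM in the mono-cultures, 952, 968, 832 and 596 CPM with KPC1, and 691, 1087, 898 and 644 CPM with clone T. It exceeded every mono-culture library in 31 of 32 co-culture libraries, and it was higher with all 8 lines. The log2 fold change of Lamc1 ran from 0.59 ± 0.19 with clone M (adjusted p = 0.0260) to 1.05 ± 0.20 with KPC1 (adjusted p = 3.23e-05). The calls with clones K and M were each lost in 3 fits that left out mono-culture replicate 1 or replicate 2 or 3 of that clone, with log2 values of 0.49 to 0.58 for Lamc1.

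Lamb1 was higher with 6 lines and not with clones K and M. Mono-cultures had 350, 379, 355 and 396 CPM. Cultures with KPC1 had 882, 788, 687 and 489 CPM, and those with clone K had 408, 456, 402 and 292 CPM, which overlap mono-culture. For Lamb1 the log2 fold change was 0.94 ± 0.19 with KPC1 (adjusted p = 6.93e-05), 0.88 ± 0.19 with clone T, 0.83 ± 0.19 with clones H and V, and 0.07 ± 0.19 with clone K. The smallest called values, 0.48 ± 0.19 with clone E (adjusted p = 0.0446) and 0.52 ± 0.19 with clone N (adjusted p = 0.0247), depended on single libraries. That with clone E was lost in 14 fits that left out 1 library, those of each mono-culture library, clone E replicates 1 to 3, clone H replicate 3, clone V replicates 1, 3 and 4, clone T replicate 1 and KPC1 replicates 2 and 3 (log2 0.43 to 0.51). That with clone N was lost without mono-culture replicate 1 or clone N replicates 2 or 3 (log2 0.45 to 0.47). Among beta chains, Lamb1 took 53.0% ± 1.63 of the summed RPKM in mono-culture and 46.5% ± 0.601 with clone K, against 78.9% ± 5.40 with clone H, and Lamb2, the chain of the synapse and the kidney filter, took nearly all of the rest. The length behind the RPKM of Lamb1 (5773 bases) is shorter than its annotated exons (9917), and with annotated lengths these Lamb1 shares were 41.6%, 35.4% and 70.3%, so that Lamb2 was the larger beta chain in mono-culture (58.4%).

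The alpha chains, which carry the receptor-binding end of laminin, did not move together. Lama4, the alpha chain of vessels and adipose tissue, was 26.8, 21.5, 13.8 and 18.7 CPM in the mono-cultures, 121, 119, 95.4 and 83.0 CPM with clone N, and 73.5, 98.8, 69.9 and 63.8 CPM with clone E. Every library of clones N, E, M and T and of KPC1 lay above every mono-culture library. With clone H it was 19.7, 36.4, 18.5 and 24.96 CPM and overlapped mono-culture. The log2 fold change of Lama4 was 2.37 ± 0.37 with clone N (adjusted p = 7.83e-06), 1.92 ± 0.37 with clone E (adjusted p = 0.000176), 0.93 to 1.30 with V, K, M, T and KPC1, and 0.30 ± 0.36 with clone H (adjusted p = 0.505). Clone V replicate 2 had 88.9 CPM against 22.7 to 40.6 CPM in the other 3. Clone M replicate 2 had 87.3 CPM against 34.8 to 38.8 CPM. Whether V and M passed rested on these libraries: without them the log2 fold change was 0.56 with V (adjusted p = 0.153) and 0.89 with M (adjusted p = 0.0757). The Lama4 calls with K and T were each lost in 5 fits, without mono-culture replicates 2, 3 or 4, or without clone K replicates 1 or 2 and clone T replicates 2 or 3 respectively (log2 0.76 to 1.13). Without the libraries numbered 4 the calls with T (adjusted p = 0.0687) and KPC1 (adjusted p = 0.0554) were lost too.

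Lama2, the alpha chain of muscle and nerve membranes, was lower with 3 lines. It was 22.02, 24.04, 19.6 and 16.1 CPM in the mono-cultures, 7.59, 12.7, 11.2 and 7.41 CPM with KPC1, 11.04, 17.2, 7.90 and 9.81 CPM with clone V, and 12.99, 16.2, 10.8 and 7.33 CPM with clone H. The KPC1 libraries all lay below the mono-culture libraries, and those of H and V overlapped them in replicate 2. For Lama2 the log2 fold change was -1.07 ± 0.30 with KPC1 (adjusted p = 0.00317), -0.83 ± 0.30 with clone V (adjusted p = 0.0189) and -0.79 ± 0.30 with clone H (adjusted p = 0.0261). With clone T it was -0.52 ± 0.30 and did not pass (adjusted p = 0.149), and it passed there with the length trend taken out (log2 -0.71, adjusted p = 0.0208). The calls with H and V were lost without mono-culture replicate 2 and without replicates 3 or 4 of the clone, and that with H also without mono-culture replicate 1, at log2 values of -0.76 to -0.62 for Lama2. The fibroblast markers Col1a2, Col3a1, Dcn, Lum and Pdgfra were also lower with these 3 lines, and with clone T, and their part in the Lama2 values was not tested.

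By RPKM, which allows levels of different genes to be set side by side, both were minor alpha chains. Lama5, the main alpha chain of epithelial and vessel membranes, made up 70.6% ± 3.94 of alpha chain RPKM in mono-culture, 61.5% ± 4.38 with clone E and 85.4% ± 4.95 with clone H. Lama4 made up 17.4% ± 3.89 in mono-culture, 33.1% ± 3.53 with clone E, 32.4% ± 4.94 with clone N and 11.2% ± 4.39 with clone H. Lama2 made up 11.1% ± 1.03 in mono-culture and between 2.05% ± 0.656 with KPC1 and 8.02% ± 0.590 with clone K, and its share was below the mono-culture range in all 32 co-culture libraries. The lengths behind the RPKM differ from the annotation for Lama2 (9596 against 16338 bases of exon) and Lama4 (6035 against 12068), and with annotated lengths the Lama4 share was 10.1% in mono-culture and 20.4% with clone E. The ratio of Lama4 to Lama2 RPKM had a geometric mean of 1.54 (1.12 to 1.94) in mono-culture, 2.88 with clone K, 3.35 with clone H, 7.02 with KPC1 and 8.85 (6.73 to 11.2) with clone N. The ratio of Lamb1 to Lamc1 had a geometric mean between 0.837 with clone K and 1.21 in mono-culture and with clone V, but with annotated exon lengths these values were 0.53, 0.764 and 0.768, all under 1.

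**Figure D3:**
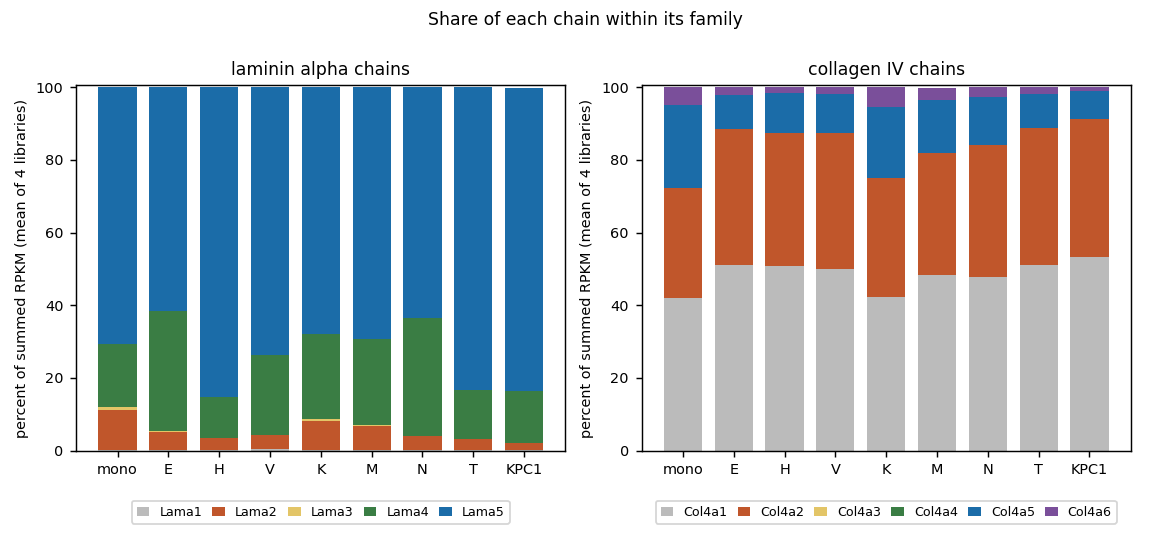
Share of each chain in the summed RPKM of the laminin alpha family (left) and the collagen IV family (right), in percent, as means of 4 libraries for mono-culture and 8 co-cultures. Lama4 is widest with clones E and N (33.1% and 32.4%), and Col4a5 is narrowest with KPC1 (7.61%).

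The nidogens, which link laminin to collagen IV, moved in opposite directions. Nid1 was 485, 519, 495 and 527 CPM in the mono-cultures, 835, 1108, 992 and 737 CPM with clone T, and 930, 967, 921 and 743 CPM with KPC1. Nid2 was 694, 731, 681 and 681 CPM in the mono-cultures, 225, 356, 344 and 339 CPM with clone T, and 296, 379, 434 and 342 CPM with KPC1. Nid1 was above every mono-culture library in 31 of 32 co-culture libraries, and Nid2 was below every mono-culture library in 32 of 32. The closest was clone V replicate 2, at 680.8 CPM of Nid2 against 681.2 CPM in the lowest mono-culture library.

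The log2 fold change of Nid1 was 0.86 ± 0.17 with clone T (adjusted p = 0.000127), 0.81 ± 0.17 with KPC1, 0.75 ± 0.17 with clone H and 0.41 ± 0.17 with clone K (adjusted p = 0.0962). The Nid1 call with clone V rested on its replicate 2, without which the log2 fold change was 0.36 (adjusted p = 0.0632). That of Nid2 was -1.14 ± 0.19 with clone T (adjusted p = 1.25e-05), -0.94 ± 0.19 with KPC1 (adjusted p = 9.45e-05), -0.72 ± 0.19 with clone H (adjusted p = 0.00205) and -0.41 ± 0.19 with clone N (adjusted p = 0.0888). With clones E, V, K and M it lay between -0.58 and -0.54 with adjusted p from 0.00994 to 0.0418. These calls were less firm. For Nid2 with K and M they were lost in 7 fits each (without any 1 of the mono-culture libraries, or replicates 1, 3 or 4 of the clone; log2 -0.57 to -0.43), with E in 4 (without mono-culture replicate 2 or clone E replicates 1, 3 or 4; log2 -0.55 to -0.51), and with V without its replicate 1 (log2 -0.39). Without the libraries numbered 4, Nid2 missed the threshold with E, K and M (adjusted p = 0.117, 0.159 and 0.186).

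Within a library, the ratio of Nid1 to Nid2 RPKM was 0.559 to 0.619 in the mono-cultures and 0.958 to 2.97 in the co-cultures, so the groups did not overlap. Its geometric mean was 0.581 in mono-culture, 1.12 with clones K and N, 1.97 with KPC1 and 2.33 with clone T. With annotated exon lengths these means were 0.541, 1.04, 1.84 and 2.17. Nid2 therefore carried the larger part of nidogen RPKM in mono-culture and Nid1 did in most co-culture libraries.

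**Figure D4:**
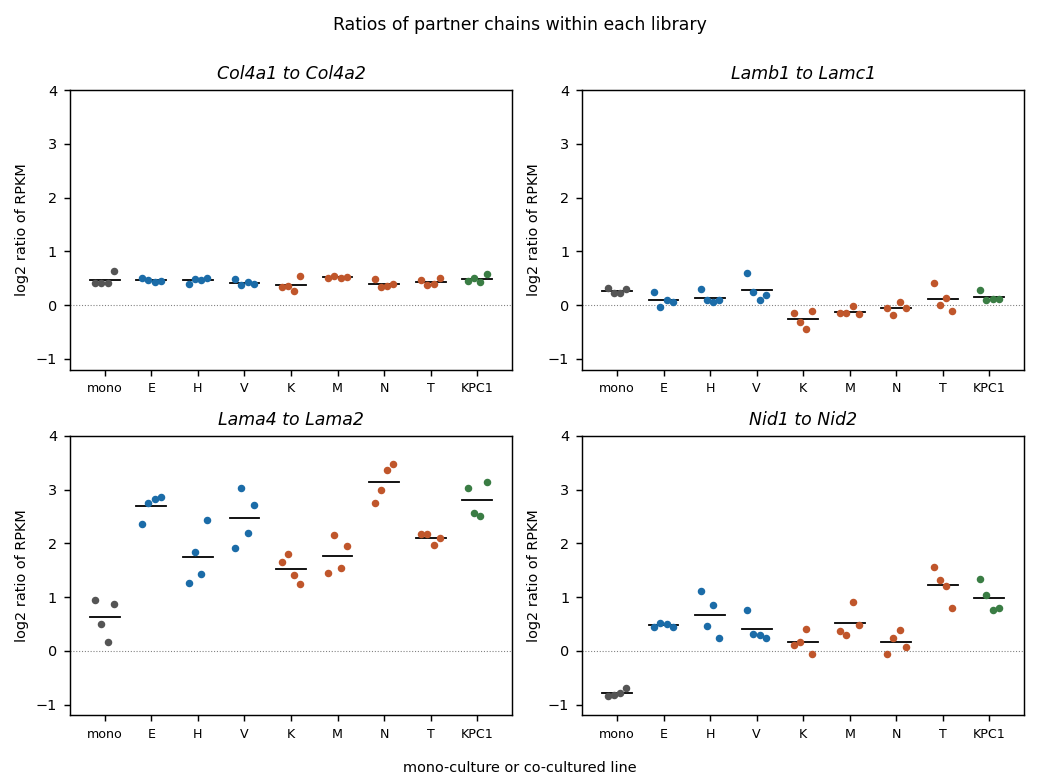
Log2 ratio of RPKM of partner chains within each library, with 4 points and their mean for mono-culture (grey), first-class clones (blue), second-class clones (orange) and KPC1 (green); the dotted line marks equal RPKM. The Col4a1 to Col4a2 ratio stays between 0.26 and 0.63 on the log2 scale, while Nid1 to Nid2 and Lama4 to Lama2 lie higher in co-culture.

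Perlecan, a large proteoglycan that binds growth factors through its heparan sulfate chains, passed the test in no comparison. Hspg2 was 1161, 1408, 1136 and 1130 CPM in the mono-cultures, 2731, 2165, 1895 and 808 CPM with clone H, and 1683, 2455, 1992 and 836 CPM with clone M. In 7 of the 8 co-cultures the library numbered 4 had the least Hspg2. The 8 co-culture libraries numbered 4 ran from 680 to 1176 CPM with a median of 869, against 1101 to 2731 CPM with a median of 1850 in the other 24 and a median of 1148 in mono-culture. The log2 fold change of Hspg2 lay between 0.08 ± 0.35 with clone N and 0.65 ± 0.35 with clone H (adjusted p = 0.114).

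Without the libraries numbered 4, Hspg2 was higher with clones H (log2 0.87, adjusted p = 0.000479), T (0.67, adjusted p = 0.00489), M (0.71, adjusted p = 0.00833), K (0.61, adjusted p = 0.0207) and KPC1 (0.57, adjusted p = 0.0113), and not with E (0.34), N (0.18) or V (0.17). With the length trend taken out of all 36 libraries, its log2 fold change was between -0.03 and 0.34 and none passed. Hspg2 is the longest member. The co-culture library numbered 4 was also the lowest of its group for Lama2 and Lamb1 in 7 of 8 co-cultures, for Col4a1, Col4a2, Col4a5 and Nid1 in 6, and for Nid2 in 2.

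**Figure D5:**
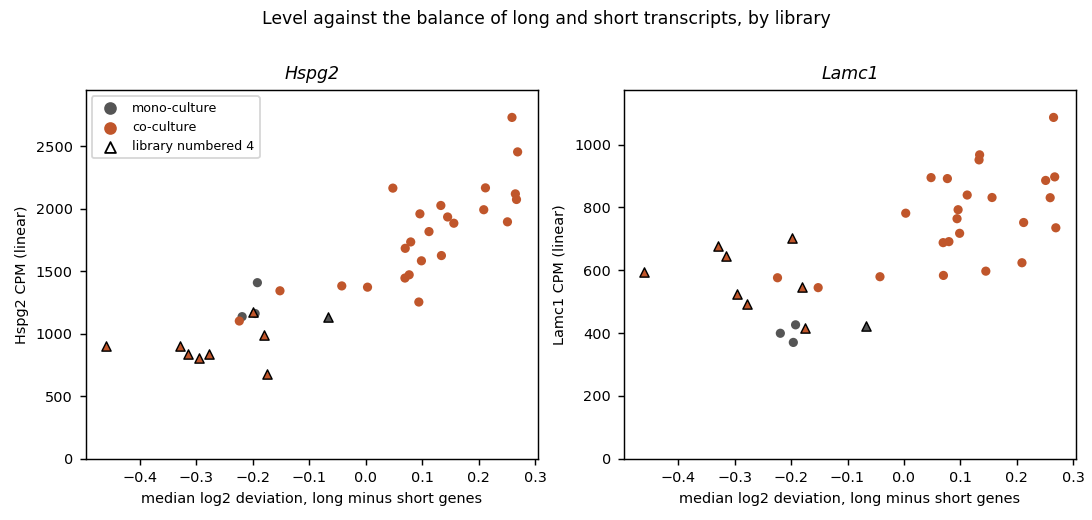
Level of Hspg2 (left) and Lamc1 (right) in CPM (linear axis from 0) against the balance of long and short transcripts, on the log2 scale, in each of the 36 libraries; grey for mono-culture, orange for co-culture, triangles for libraries numbered 4. The co-culture triangles lie at a balance of -0.175 or less and have at most 1176 CPM of Hspg2. Mono-culture replicate 2, at a balance of -0.192, has 1408 CPM of Hspg2. Lamc1 lies above every mono-culture library in 31 of 32 co-culture libraries.

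Whether the clone mattered was tested for each member across the 7 clonal co-cultures. Of the 10, 7 differed among clones by edgeR's F-test with adjustment over all genes, as did 67.5% of the genes tested. The clearest were Lama4 (adjusted p = 0.00015), whose group means spanned 4.2 times from clone H to clone N, and Col4a1 (adjusted p = 0.000408), which spanned 2.02 times from clone K to clone T. Lamb1 (adjusted p = 0.000837), Col4a2 (adjusted p = 0.00274) and Lama2 (adjusted p = 0.00964) spanned 1.74, 1.91 and 1.99 times. Nid2 (adjusted p = 0.0337) and Col4a5 (adjusted p = 0.0350) lost the call in 10 and 16 of the fits that left out 1 library, and Nid2 did so also without the libraries numbered 4 (adjusted p = 0.133). For Nid2 these libraries were mono-culture replicates 1 and 4, clone H replicates 3 and 4, clone V replicate 4, clone N replicates 1 and 2 and clone T replicates 1, 3 and 4 (adjusted p = 0.0509 to 0.21). For Col4a5 they were mono-culture replicate 1, clone E replicates 1 and 4, clone H replicate 3, clone V replicate 4, clone K replicates 1, 2 and 3, clone N replicates 1, 2 and 3, clone T replicates 1 and 2 and KPC1 replicates 1, 2 and 3 (adjusted p = 0.0504 to 0.0862). Lamc1 and Nid1, with spans of 1.36 and 1.37 times, did not pass (adjusted p = 0.221 and 0.236), and Lamc1 passed with the length trend taken out (adjusted p = 0.0256). Hspg2 did not pass (adjusted p = 0.666) and did without the libraries numbered 4 (adjusted p = 0.00775).

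In the order of levels most neighbors could not be told apart. Neighbors were set by sorting these same levels, which favors small steps, and the share of such steps over all genes is not given here. Of the 80 steps between neighboring groups (8 for each member), 2 passed, both next to mono-culture: Col4a2 with clone K above mono-culture (adjusted p = 0.0299) and Lamc1 with clone M above mono-culture (adjusted p = 0.0260). The number of steps was 0 without mono-culture replicate 1, 1 without any 1 of mono-culture replicates 2 or 3, clone K replicates 1, 2 or 3 or clone M replicates 2 or 3, and 4 without clone H or K replicate 4. It was 5 with the replicate number as a block and 5 without the libraries numbered 4. For Col4a1 the order from high to low was KPC1, T, E, H, V, N, M, K and mono-culture, and the 3 largest steps were K over mono-culture at 0.53, M over K at 0.44 and KPC1 over T at 0.30 on the log2 scale. Over all 36 pairs of groups, 18 passed for Col4a2, 17 for Col4a1, 16 for Lama4, 15 for Lamb1, 13 for Nid2, 12 for Lama2, 9 each for Lamc1 and Nid1, 3 for Col4a5 and none for Hspg2, where 30.7% of all gene and pair combinations passed.

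KPC1 stood above the mean of the clones for 3 members and below it for 1, and these 4 calls became 7 with the replicate number as a block and 2 without KPC1 replicate 1. Col4a1 was higher by log2 0.61 ± 0.14 (adjusted p = 0.000896), Col4a2 by 0.56 ± 0.16 (adjusted p = 0.00507) and Lamb1 by 0.40 ± 0.14 (adjusted p = 0.0188), while Lama2 was lower at -0.79 ± 0.24 (adjusted p = 0.0105). Of all genes 22.3% were higher and 18.8% lower in this comparison. The Lamb1 call was lost without KPC1 replicates 1 or 2 (log2 0.27 and 0.36), and the Lama2 call without KPC1 replicates 1 or 4 (log2 -0.69 and -0.67). Between the metabolic classes, with counts summed per clone so that each clone was 1 replicate, no member and 0% of 15792 genes passed edgeR's test, although 1890 genes had an unadjusted p under 0.05. Col4a1 was 0.33 ± 0.22 higher on the log2 scale with E, H and V than with K, M, N and T (adjusted p = 0.432), and Lama2 differed by -0.48 ± 0.24 (adjusted p = 0.387).

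Other components of basement membranes were read from a list of 26 genes, of which 20 passed the filter. In the mean of the clones 8 were higher and 4 lower, against 24.3% and 24.9% of all genes, and the median change over the list was 0.15 on the log2 scale. Col15a1 and Col18a1, the multiplexin collagens that tie basement membranes to the tissue below, rose most among abundant genes: Col15a1 from 12.1 CPM to 105 CPM with clone K and 281 CPM with KPC1, and Col18a1 from 112 CPM to 233 and 837 CPM. Their log2 fold changes in the mean of the clones were 3.57 ± 0.24 and 1.88 ± 0.20. Lama5 was higher with every line but clone K, at 153 CPM in mono-culture, 264 to 496 CPM with those 7 lines and 225 CPM with K (adjusted p = 0.0779). Its log2 fold change in the mean of the clones was 1.03 ± 0.18 (adjusted p = 2.59e-05). Npnt, the integrin ligand nephronectin, Ntn4, a netrin that binds laminin, and Pxdn, the peroxidase that cross-links collagen IV, rose in that mean as well, with log2 values of 1.40 ± 0.39, 0.80 ± 0.13 and 0.45 ± 0.12. Npnt did not pass with clone H (13.2 CPM against 14.7 CPM in mono-culture) or V, Ntn4 did not with V, and Pxdn did not with K, N or T. Lamb3, the beta chain of an epithelial laminin with Lama3, was higher in the mean of the clones (group means of at most 2.46 CPM). Lama3 itself, Smoc2, Frem1 and Tinagl1 were lower there. Among single lines Lamb3 passed with H, N, T and KPC1, and was 0.0513 CPM with clone E against 0.116 CPM alone. Lama3 passed as lower with H, V, T and KPC1, and was 1.44 CPM alone, 0.158 CPM with KPC1 and 1.66 CPM with clone K. Sparc, a collagen-binding protein and the most abundant of the list, was at 3370 CPM in mono-culture and 3050 to 4420 CPM in co-culture (log2 0.12 ± 0.10 in the mean of the clones, adjusted p = 0.345), and passed as higher with clone V alone.

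Of 12 receptor genes, 7 were higher and 2 lower in the mean of the clones, again against 24.3% and 24.9% of all genes, and the list had a median of 0.31 on the log2 scale. Itga6 and Itgb4, whose products pair as a laminin receptor of epithelial cells, rose in the mean of the clones (log2 2.02 ± 0.26 and 2.32 ± 0.52), with group means of 27 CPM in mono-culture and 82.6 to 179 CPM in co-culture for Itga6, and of 2.23 CPM and 2.78 to 34.7 CPM for Itgb4, which did not pass with V or K. Itga2, a collagen receptor subunit, was at 0.146 CPM in mono-culture, rose to between 1.30 and 13.3 CPM with 7 lines, and was at 0.448 CPM with clone K, where it did not pass (adjusted p = 0.39). Itga7, a laminin receptor subunit of muscle, was at 21.5 CPM in mono-culture, 20.6 CPM with clone K and 79.5 CPM with clone V, and was higher in the mean of the clones (log2 0.98 ± 0.20). Dag1, which encodes dystroglycan, a receptor for laminin alpha chains and perlecan, was lower in the mean of the clones, as was the collagen receptor Ddr1. Among single lines both passed only with H, V, T and KPC1. Dag1 was at 400 CPM in mono-culture, 251 CPM with V, 256 CPM with KPC1 and 382 CPM with M. Ddr1 was at 136 CPM in mono-culture, 75.1 CPM with V, 77.7 CPM with KPC1, 148 CPM with M and 153 CPM with K. Krt8, Krt18 and Krt19 rose in every co-culture, from under 0.2 CPM each to group means of 19.5 to 156, 54.2 to 281 and 7.65 to 79.7 CPM, and their part in the integrin and Lama5 values was not tested.

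Among the genes most like 3 members over the 36 libraries, by Pearson correlation of log2 CPM in a search of 11685 genes, were Apobec1 (r = 0.915), Loxl3 (0.911) and Cacna1c (0.894) for Col4a1, Med13l (0.931) and Abcc1 (0.907) for Lamc1, and Notch1 (0.884), Col6a1 (0.884) and Nf1 (0.867) for Nid1. Loxl3 encodes a lysyl oxidase that cross-links collagen, and its level went from 49.5 CPM in mono-culture to between 66.3 and 111 CPM. Col6a1, a chain of the microfibrillar collagen VI beside basement membranes, went from 2300 CPM to between 3280 and 4760 CPM. The points share libraries, depth and the balance of long and short transcripts, which was not taken out here, and these correlations are descriptions only. Among the members themselves Lamb1, Lamc1, Nid1, Col4a1 and Col4a2 correlated with each other at r from 0.763 to 0.992, and Nid2 correlated with each of them at r from -0.439 to -0.269.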

How the data were processed

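Poly(A) RNA of 36 fibroblast libraries was read as 76 base paired ends after strand-specific library preparation from 200 ng of RNA with 14 cycles of amplification. The authors deposited raw read counts per gene, for which the submitters' processing notes name STAR, featureCounts, edgeR and the build mm10 without versions, and a second table deposited as RPKM, which carries no separate statement of the gene lengths used. The methods of the paper describe the tumor clones and not the fibroblast cultures. Groups came from the labels, and the replicate numbers from the sample titles.

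Counts were tested with edgeR 4.0.16 (quasi-likelihood, trimmed mean of M values, filterByExpr, 14439 genes) in R 4.3.3, with all 9 groups in 1 fit and Benjamini-Hochberg adjustment over all genes tested, and with a threshold of 0.05. Classes were compared on counts summed per clone. RPKM was used for ratios and shares of chains. On simulated counts for clone E against mono-culture (14439 genes, 200 changed), this test recovered 84% of the 2-fold and 95% of the 4-fold changes, with 5 false calls. No pair of libraries within a group agreed within sampling noise (smallest chi-square per degree of freedom 5.69 over 54 pairs). Gene positions and exon lengths came from GENCODE M21 and start windows from RefSeq GRCm38.p6. The leukocyte marker Adgre1 was matched by its Ensembl identifier.

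The members and lists were chosen with earlier results of these data known. Genes named are the 10 members, the lists of other basement membrane components and receptors, markers of cell types, and the 3 genes most correlated with each of Col4a1, Lamc1 and Nid1 among genes with a mean of at least 2 CPM. A few genes of these lists, and 1 allele of the mouse the tumor came from, are not reported here. Alternatives were other scaling (DESeq2's RLE, none), other filters (none, at least 10 counts in every library), a threshold of 0.1, a replicate block, DESeq2 1.42.0, limma 3.58.1 on log2(RPKM + 1) and log2(RPKM + 0.1), fits of 8 libraries, and each library left out. The fits without libraries numbered 4 and with a length trend taken out (lowess, span 0.3, 14307 genes with a length) were added after seeing the data.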

Additional observations from a re-analysis of the deposited data

Results flagged for a closer look

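In 5 of 90 sets of 4 libraries, 1 library stood apart by Dixon's ratio (the gap to the nearest library over the whole range), where chance gives about 1 in 20, or 4.5. Col4a1 in mono-culture had a ratio of 0.879, with 726 CPM in replicate 4 against 491, 519 and 520 CPM. Lama4 with clone M had 0.925, with 87.3 CPM in replicate 2 against 34.8, 38.6 and 38.8 CPM. Nid2 with clone H had 0.846, with 552 CPM in replicate 2 against 367, 382 and 395 CPM. Nid2 with clone T had 0.873, with 225 CPM in replicate 1 against 339, 344 and 356 CPM. Hspg2 in mono-culture had 0.89, with 1408 CPM in replicate 2 against 1130, 1136 and 1161 CPM.

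The effect of co-culture differed among the 7 clones by edgeR's F-test for 7 of the 10 members, as it did for 67.5% of all genes tested, with adjusted p = 0.00015 for Lama4, 0.00041 for Col4a1, 0.00084 for Lamb1, 0.0027 for Col4a2, 0.0096 for Lama2, 0.034 for Nid2 and 0.035 for Col4a5.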

How the results depend on the processing

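With clone K the number of members called went from 4 to 1 without a filter on low counts, 2 with limma on log2(RPKM + 1), 7 at an adjusted p under 0.1, 7 with the replicate block and 7 without the libraries numbered 4, and ranged from 1 to 6 on leaving out 1 library (1 without mono-culture replicates 1, 2 or 3 or clone K replicates 1, 2 or 3). KPC1 against the mean of the clones went from 4 to 7 with the replicate block and ranged from 2 (without KPC1 replicate 1) to 6. Steps between neighboring groups went from 2 to 1 without a filter, 5 at an adjusted p under 0.1, 5 with the block and 5 without the libraries numbered 4, and ranged from 0 (without mono-culture replicate 1) to 4 (without clone H or K replicate 4). The other counts stayed within 1.5 times under every alternative run. The labels' replicate numbers are not known to pair the libraries: of 28 pairs of co-cultures, 3 had all same-numbered correlations over 0.1, and of 8 pairs with mono-culture none. The block newly called 13 member values and lost 0. The cause of these changes was not tested.

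Directions reversed only for values that passed no test. Col4a5 became -0.0028 with clone H and -0.061 with clone V without scaling, -0.071 and -0.073 with V on log2(RPKM + 1) and log2(RPKM + 0.1), and 0.067 with clone E without the libraries numbered 4. Lama2 became 0.024 with clone N without those libraries. With the length trend taken out, Lama2 became -0.028 with K and -0.062 with M, Lamb1 -0.015 with K and Hspg2 -0.030 with N. Between classes, Nid2 became -0.0069 without scaling, and Nid1 and Nid2 became -0.0067 and -0.0069 on log2(RPKM + 1) and both -0.0068 on log2(RPKM + 0.1).

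On leaving out 1 library, Col4a5 ranged from -0.124 to 0.024 with E and from -0.050 to 0.145 with V, Hspg2 from -0.082 to 0.252 for KPC1 against the clones and from -0.036 to 0.235 with V, Lama2 from -0.217 to 0.0057 with E, from -0.012 to 0.350 with K, from -0.073 to 0.286 with M and from -0.304 to 0.142 with N, and Lamb1 from -0.0085 to 0.189 with K. Between classes, leaving out 1 clone gave Hspg2 -0.143 to 0.077, Lama4 -0.733 to 0.179, Lamc1 -0.017 to 0.155, Nid1 -0.045 to 0.125 and Nid2 -0.097 to 0.111. Lama2 and Lama4 have the lowest counts, down to 130 and 182 in a library.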
